A study of Homo sapiens with 4 samples.

Results

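The 10 genes PTBP1, PTBP2, NOVA1, NOVA2, RBFOX1, RBFOX2, ELAVL2, ELAVL3, ELAVL4 and SRRM4 encode neuronal RNA-binding and splicing regulators. They were chosen by name from the 60612 gene rows of the count table, and their identifiers were matched to symbols. RNA sequencing was performed on IMR-32 cells, an established MYCN-amplified neuroblastoma line, with 2 shControl libraries and 2 shNeuroD1 libraries. The cells carried lentiviral hairpins under doxycycline control, and doxycycline at 1 µg/mL for 48 h was given in both groups. The control cells are labelled shControl and wild type. The study's methods name a scrambled hairpin and its figures a negative control (shNC), while its RNA sequencing text calls the control cells parental. Separate cultures are not stated for the libraries of a group, so p-values measure the spread between these libraries, which may be technical. The labels do not name the NeuroD1 hairpin, and a table of differential genes from the study is named for the second of its NeuroD1 hairpins.

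These proteins decide which exons enter a neuronal mRNA and how long that mRNA lasts. PTBP1 is the polypyrimidine tract-binding protein of non-neuronal and progenitor cells, and its replacement by PTBP2 is a known step of neuronal differentiation. RBFOX, NOVA and SRRM4 proteins promote neuronal exons, SRRM4 in particular very short ones called microexons, and the neuronal ELAVL (Hu) proteins bind AU-rich elements and stabilise transcripts as well as guiding splicing.

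The libraries held 14665210 to 16482463 counts. NEUROD1, the targeted gene, had 419 and 415 CPM (counts scaled to library size) in shControl and 63.7 and 58.2 CPM in shNeuroD1, 14.6% of the control mean. Its annotated exons share 236 bases with CERKL on the same strand. HAND2, a transcription factor gene that marks neuroblasts, was expressed at 789 and 783 CPM in shControl against 723 and 708 CPM after knockdown, whereas the 3 leukocyte markers summed to 0.131 to 0.590 CPM over the 4 libraries, with CD3E at 0. The 3 endothelial markers summed to 1.38 to 1.69 CPM, the 4 Schwann cell markers to 5.03 to 9.56 CPM, and the 4 fibroblast or mesenchymal markers, mostly COL1A1 and PDGFRB, to 32.6 to 48.5 CPM. In bulk RNA, fewer cells of a type and less RNA per cell cannot be told apart.

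Of the 10 regulators, 9 passed an adjusted p of 0.05 by edgeR's quasi-likelihood test with Benjamini-Hochberg adjustment, against 55.0% of the 17537 genes tested. PTBP2, NOVA2, RBFOX1, RBFOX2 and ELAVL4 were higher in shNeuroD1 (background 26.8%), PTBP1, ELAVL2, ELAVL3 and SRRM4 were lower (background 28.2%), and NOVA1 did not pass. No regulator also passed a log2 fold change beyond 1, which 13.9% of genes did (8.79% higher and 5.14% lower). DESeq2 likewise gave 0 past both thresholds, where 771 genes passed lower and 998 higher of 19313 tested. In edgeR the same 9 regulators had an unadjusted p under 0.05, a threshold at which the share of all genes was not counted. The log2 fold changes ran from -0.59 to 0.59 with a median of -0.01, beside 0.01 over all genes tested. The 2 libraries of a group did not overlap with those of the other group for any of the 10 genes, NOVA1 included. The share of all genes tested with such separation was not counted, so this does not set the 10 genes apart. Scaling by library size alone moved the median of all genes to 0.12.

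**Figure D1:**
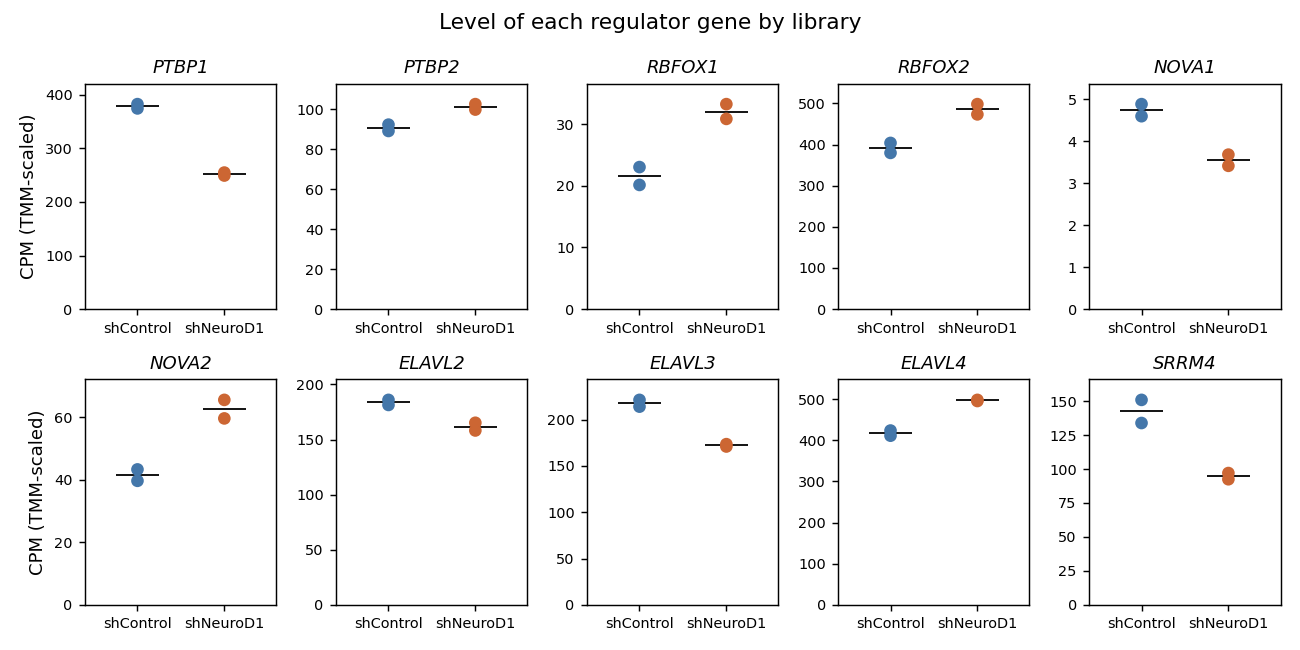
Level of the 10 regulator genes in each library, in CPM after TMM scaling (y axis, starting at 0 in each panel), for shControl (blue) and shNeuroD1 (orange). Points are libraries and bars are group means. The groups are separate in each panel, with PTBP1 near 379 CPM in shControl and 252 CPM in shNeuroD1.

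Levels between genes were compared per kilobase of annotated exon (RPKM, computed from the counts). In shControl ELAVL4 was the most abundant at 59.9 ± 1.27 RPKM (SD, n = 2), followed by PTBP1 at 55.0 ± 0.822, ELAVL3 at 45.7 ± 1.08, RBFOX2 at 39.1 ± 1.71 and ELAVL2 at 35.7 ± 0.631. SRRM4 stood at 16.1 ± 1.36 RPKM, PTBP2 at 7.02 ± 0.173, NOVA2 at 4.77 ± 0.296, RBFOX1 at 2.13 ± 0.203 and NOVA1 at 0.472 ± 0.0203. No neighbours in this order had overlapping libraries. In shNeuroD1 RBFOX2 (48.5 ± 1.76 RPKM) stood above PTBP1, and PTBP1 at 36.6 ± 0.571 and ELAVL3 at 36.2 ± 0.376 RPKM had overlapping libraries. ELAVL4 remained highest at 71.4 ± 0.279 RPKM and NOVA1 lowest at 0.353 ± 0.0187 RPKM.

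PTBP1 represses neuronal exons, among them an exon of its paralog PTBP2. PTBP1 (chr19:797075-812327, plus strand, GRCh38) was at 375 and 383 CPM in shControl and at 255 and 249 CPM in shNeuroD1. It fell by 0.59 on the log2 scale (SE 0.04, adjusted p = 1.5e-13 in edgeR), and its highest shNeuroD1 library stood well under the lowest control. PTBP2 (chr1:96721665-96823738, plus strand), the neuronal paralog, was at 92.4 and 89.2 CPM in shControl and at 103 and 99.95 CPM in shNeuroD1. Its log2 fold change was 0.16 (SE 0.05, adjusted p = 0.0114 in edgeR), a small rise that was lost with DESeq2 (adjusted p = 0.179) and without each of the 4 libraries (0.0533 to 0.15), within a range of 5.3e-05 to 0.425 over all alternatives. PTBP3, another paralog, fell by 0.39 (SE 0.06, adjusted p = 3.5e-06 in edgeR).

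The ratio of PTBP2 to PTBP1 counts, which is taken within a library, stood at 0.247 and 0.233 in the controls and reached 0.403 and 0.401 after knockdown. The mean ratio was 1.67 times higher in shNeuroD1, and the groups did not overlap. The two-sided exact permutation test gave p = 0.333, the smallest value that 2 against 2 libraries allow.

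PTBP1 and PTBP2 each carry a 34-base coding exon whose length is not a multiple of 3, so that skipping it shifts the reading frame. Skipping of these exons is the known route by which PTBP proteins lower the output of PTBP1 and PTBP2 transcripts. The exons are shown because the inclusion values that follow refer to them, with capitals at the 9 of 34 positions where they differ, for PTBP2 at chr1:96806419-96806452 and PTBP1 at chr19:807869-807902, both on the plus strand of GRCh38 with GENCODE 29 annotation.
PTBP2: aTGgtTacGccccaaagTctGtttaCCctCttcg
PTBP1: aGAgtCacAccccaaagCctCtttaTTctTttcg

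Inclusion is the included share of the deposited FPKM, a unit scaled by length and depth, of both forms. The PTBP2 exon reached 73.0% and 70.8% in shControl, and 97.7% and 90.5% with NeuroD1 knockdown. The skipped form had 3.31 and 4.20 FPKM in shControl and 0.359 and 1.49 FPKM in shNeuroD1, so that the groups were separate in the skipped form and in inclusion. The log2 ratio of included to skipped FPKM was higher by 2.77 (SE 0.84), with an unadjusted p of 0.0368 and an adjusted p of 0.646 by limma over 11673 cassette exons, so the difference did not pass. It was 1.84 without shNeuroD1 replicate 1, 3.70 without shNeuroD1 replicate 2 and 1.92 with a pseudocount of 1 FPKM. Of all exons tested, 0 passed (0.0%) and 803 had an unadjusted p under 0.05. Inclusion did not overlap between groups for 14.5% of all exons tested toward more and for 11.9% toward less inclusion.

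For the PTBP1 exon, inclusion reached 90.2% and 99.5% in shControl against 100% in both shNeuroD1 libraries (adjusted p = 0.804, limma). Its skipped form reached 2.57 FPKM in shControl replicate 1 and at most 0.202 FPKM elsewhere. Without that library the log2 ratio difference dropped from 2.10 to 0.15. A second PTBP1 exon of 78 bases, a multiple of 3, at chr19:805492-805569 was included at 60.8% and 95.6% in shControl and at 76.8% and 98.6% in shNeuroD1, with libraries that overlapped between groups.

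RBFOX proteins bind GCATG elements beside exons and promote or block them by position. RBFOX1 (chr16:5239802-7713338, plus strand) was at 20.1 and 23.0 CPM in shControl and at 33.3 and 30.9 CPM in shNeuroD1. It rose by 0.57 on the log2 scale (SE 0.09, adjusted p = 2.7e-06 in edgeR). RBFOX2 (chr22:35738736-36028425, minus strand), the broadly expressed member, was at 380 and 404 CPM in shControl and at 473 and 498 CPM in shNeuroD1, a rise of 0.31 (SE 0.04, adjusted p = 2.2e-07 in edgeR). RBFOX3, known as the neuronal nuclear antigen NeuN, was lower, at 63.4 and 61.4 CPM against 55.0 and 52.4 CPM (log2 fold change -0.22, SE 0.06, adjusted p = 0.00385 in edgeR), and this call was lost with DESeq2 (adjusted p = 0.068), with library size scaling (0.158), without shControl replicate 1 (0.074) and without shNeuroD1 replicate 2 (0.0846). Gene FPKM gave RBFOX3 log2 fold changes of -1.06 and -1.19 with pseudocounts of 1 and 0.1, which did not pass either (adjusted p = 0.0775 and 0.0957, limma).

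RBFOX1 and RBFOX2 share an alternative coding exon of 40 bases in the part that encodes the C-terminal region, and its length is not a multiple of 3. It is shown with capitals at the 6 differing positions, for RBFOX1 at chr16:7664929-7664968 (plus strand) and RBFOX2 at chr22:35756105-35756144 (minus strand), GRCh38.
RBFOX1: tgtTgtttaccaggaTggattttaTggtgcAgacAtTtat
RBFOX2: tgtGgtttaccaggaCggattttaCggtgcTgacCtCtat

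The RBFOX1 exon was included at 96.6% to 100% in the 4 libraries. The RBFOX2 exon was included at 95.7% and 83.9% in shControl and at 19.9% and 80.1% in shNeuroD1, where replicates 1 and 2 were far apart (adjusted p = 0.804, limma). RBFOX2 counts in these libraries, at 473 and 498 CPM, did not show such a gap. A 53-base RBFOX1 exon at chr16:7693315-7693367 was included at 71.1% and 85.7% in shControl and at 53.3% and 68.3% in shNeuroD1. These groups did not overlap, as for 11.9% of all exons tested toward less inclusion, and the difference did not pass (adjusted p = 0.804, limma).

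NOVA proteins bind YCAY clusters and shape the splicing of synaptic transcripts. NOVA2 (chr19:45933734-45973546, minus strand) was at 39.6 and 43.3 CPM in shControl and at 59.6 and 65.5 CPM in shNeuroD1. It rose by 0.59 on the log2 scale (SE 0.07, adjusted p = 8.5e-09 in edgeR). NOVA1 (chr14:26443093-26597754, minus strand) had 72 and 73 counts in shControl and 56 and 52 counts in shNeuroD1. Its log2 fold change of -0.42 (SE 0.21, adjusted p = 0.0945 in edgeR) did not pass, with an interval of 2 SE from -0.84 to 0.0048.

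**Figure D2:**
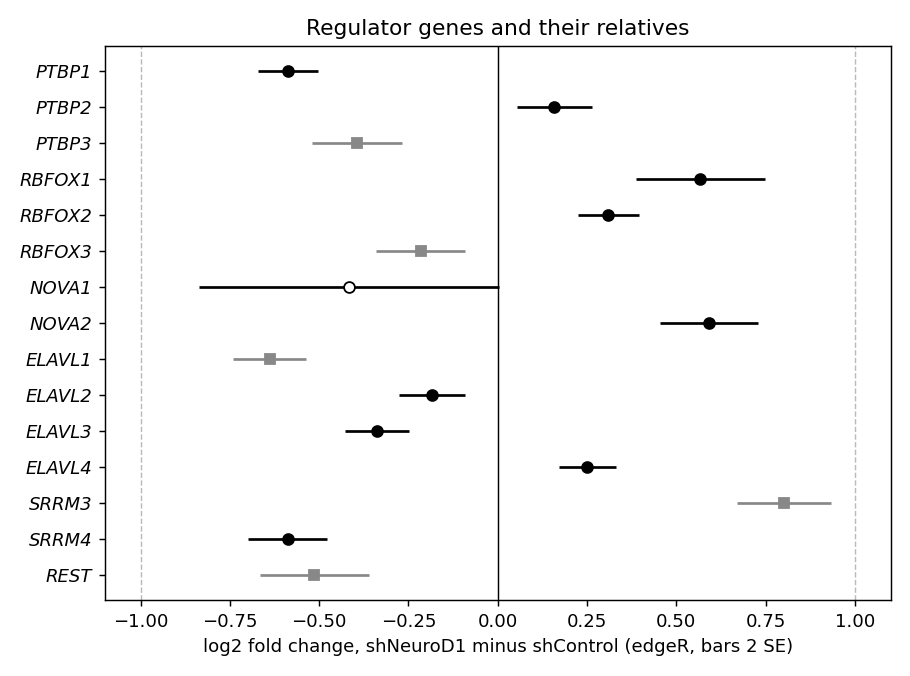
Log2 fold change (x axis, shNeuroD1 minus shControl, edgeR) of the regulators (black circles) and of PTBP3, RBFOX3, ELAVL1, SRRM3 and REST (grey squares). Bars are 2 SE, the open symbol is the gene that did not pass (NOVA1), and dashed lines mark -1 and 1. SRRM3 at 0.80 and SRRM4 at -0.59 lie on opposite sides of 0.

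The neuronal ELAVL genes also moved in both directions. ELAVL4 (HuD; chr1:50048014-50203786, plus strand) was at 424 and 411 CPM in shControl and at 495 and 498 CPM in shNeuroD1, a rise of 0.25 on the log2 scale (SE 0.04, adjusted p = 3.1e-06 in edgeR). ELAVL3 (HuC; chr19:11451326-11481046, minus strand) was at 214 and 221 CPM against 174 and 171 CPM. It fell by 0.34 (SE 0.04, adjusted p = 1.1e-07 in edgeR).

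ELAVL2 (HuB; chr9:23690104-23826337, minus strand) was at 186 and 181 CPM in shControl and at 165 and 158 CPM in shNeuroD1. Its log2 fold change of -0.18 (SE 0.05, adjusted p = 0.00106 in edgeR) was lost with library size scaling (-0.07, adjusted p = 0.19) and without shNeuroD1 replicate 2 (-0.15, adjusted p = 0.0728). ELAVL1 (HuR), the ubiquitous relative, was at 159 and 156 CPM in shControl and at 96.4 and 106 CPM in shNeuroD1, and fell by 0.64 (SE 0.05, adjusted p = 2.3e-12 in edgeR). The summed level of ELAVL2, ELAVL3 and ELAVL4 came to 142 and 141 RPKM in shControl, and to 140 and 138 RPKM after knockdown. Within that sum ELAVL4 took 42.9% and 41.9% in shControl and 50.9% and 51.8% in shNeuroD1, while ELAVL3 took 31.7% and 33.0% against 26.1% and 26.0%.

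ELAVL2 and ELAVL4 share a 39-base coding exon, a multiple of 3. It is shown because its use differed between these paralogs, with capitals at the 5 differing positions, for ELAVL2 at chr9:23693448-23693486 (minus strand) and ELAVL4 at chr1:50197429-50197467 (plus strand), GRCh38.
ELAVL2: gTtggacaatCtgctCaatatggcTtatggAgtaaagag
ELAVL4: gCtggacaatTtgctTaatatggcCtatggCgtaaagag

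The ELAVL4 exon was included at 99.9% in each of the 4 libraries. The ELAVL2 exon was included at 22.9% and 49.6% in shControl and at 23.8% and 19.9% in shNeuroD1, with overlapping groups (adjusted p = 0.804, limma). ELAVL3 had no transcript events in the files used here.

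ELAVL4 had 4 listed transcript starts. The first, at chr1:50103910-50104000, had 47.1 and 44.6 FPKM in shControl and 62.0 and 58.1 FPKM in shNeuroD1. The third, at chr1:50108856-50109198, had 4.02 and 4.39 FPKM in shControl and 13.5 and 15.4 FPKM in shNeuroD1, and its share of the ELAVL4 total was 6.61% and 7.61% against 15.3% and 18.6%. These shares did not overlap between groups, and how many of all starts did so was not counted. Against the other starts of the gene its log2 ratio was higher by 1.39 (SE 0.67), with an adjusted p of 0.839 by limma over 11320 starts, of which 0 passed (0.0%). Testing starts was chosen after the values had been seen. This start was singled out for the lowest p of the 4 ELAVL4 starts (unadjusted p = 0.111, limma). Lower unadjusted limma p-values were given by an ELAVL2 start listed on the opposite strand (0.00349) and by PTBP1 starts (0.0787 and 0.0889).

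**Figure D3:**
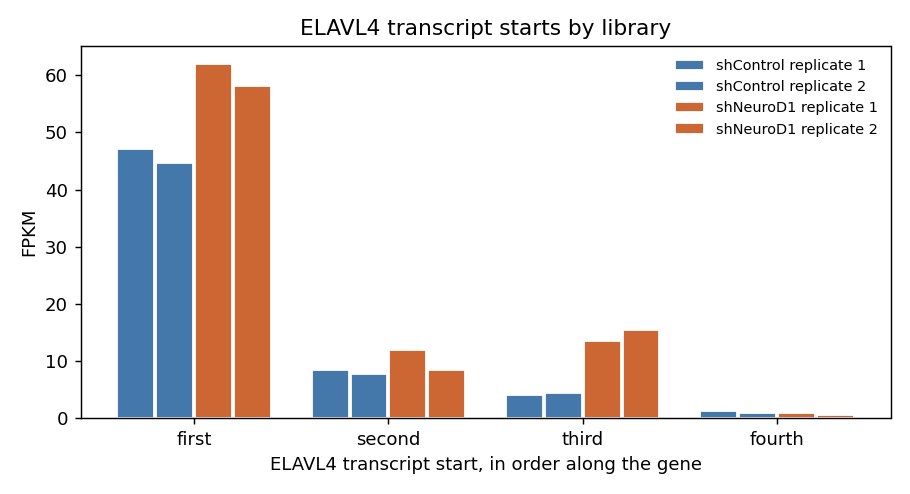
FPKM (y axis, from 0) of the 4 ELAVL4 transcript starts in order along the gene, with 1 bar for each library (blue shControl, orange shNeuroD1). The third start is at 4.02 and 4.39 FPKM in shControl and at 13.5 and 15.4 FPKM in shNeuroD1.

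The RefSeq start nearest to the third ELAVL4 start lies 64 bases downstream of the beginning of the listed event. The 250 bases before it, chr1:50108670-50108919 (plus strand, GRCh38.p14, RefSeq), are shown because NeuroD1 is known to bind E-boxes such as CAGATG, and capitals mark the match. The match, chr1:50108881-50108886, begins 25 bases after the beginning of the listed start event, so it lies before the RefSeq start but inside the event whose FPKM was measured.
ELAVL4 before the RefSeq start: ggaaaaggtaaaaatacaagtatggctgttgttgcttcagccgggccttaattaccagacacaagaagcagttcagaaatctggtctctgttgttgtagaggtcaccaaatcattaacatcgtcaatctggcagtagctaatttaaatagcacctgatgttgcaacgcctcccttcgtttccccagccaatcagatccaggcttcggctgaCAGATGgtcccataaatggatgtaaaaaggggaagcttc

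RefSeq promoter windows of 300 bases, 250 before and 50 after a start, were matched for 8 of the 10 regulators, and ELAVL3 and RBFOX2 were without an entry. CAGATG or its reverse complement CATCTG was found in 7 of 26 windows, from ELAVL4, PTBP2, SRRM4 and RBFOX1, while 14.7% of all 35116 windows held it. The RefSeq window beside the second ELAVL4 start also held 1 match, and that start took 13.9% and 13.6% of the ELAVL4 total in shControl against 13.4% and 10.3% after knockdown. Another E-box, CAGCTG, was in 17.9% of all windows and, among the regulators, only in windows of ELAVL4, ELAVL2 and RBFOX1. The windows of a gene can overlap, and a match of letters does not show binding.

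SRRM4 promotes microexons and the neuronal exon of REST, the repressor of neuronal genes. SRRM4 (chr12:118981495-119163051, plus strand) was at 134 and 151 CPM in shControl and at 97.0 and 92.5 CPM in shNeuroD1. It fell by 0.59 on the log2 scale (SE 0.06, adjusted p = 8.2e-11 in edgeR), and its control libraries were the most spread of the lowered genes. Its relative SRRM3 was at 45.7 and 53.9 CPM against 89.1 and 84.9 CPM and rose by 0.80 (SE 0.07, adjusted p = 3.9e-12 in edgeR). The ratio of SRRM3 to SRRM4 counts stood at 0.341 and 0.357 in shControl against 0.918 in both shNeuroD1 libraries (exact permutation p = 0.333, the smallest possible), a ratio examined after the values had been seen.

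REST was at 43.8 and 45.7 CPM in shControl and at 29.6 and 33.1 CPM in shNeuroD1, and fell by 0.51 (SE 0.08, adjusted p = 8.6e-07 in edgeR). A 50-base REST exon at chr4:56927615-56927664 was included at 56.1% and 83.4% in shControl and at 90.7% and 100% in shNeuroD1. The groups did not overlap, as for 14.5% of all exons tested toward more inclusion. The forms were at 3.67 FPKM or less and the difference did not pass (adjusted p = 0.804, limma).

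Exons were then examined over the regulators and over known target genes of the 5 families. In the regulators 18 exons of 6 genes were tested and 0 passed, 1 of them (the PTBP2 exon) with an unadjusted p under 0.05. In 39 target genes 105 exons were tested, of which 0 passed and 16 had an unadjusted p under 0.05. That is 15.2%, beside 6.88% of all exons tested. Of the 16, 13 had more and 3 had less inclusion, against 452 and 351 over all exons. By family the 16 were 11 of 39 exons in RBFOX targets (28.2%), 2 of 14 in PTBP targets (14.3%), 1 of 10 in ELAVL targets (10%), 2 of 26 in SRRM4 targets (7.69%) and 0 of 16 in NOVA targets. KIF21A and ANK2, both RBFOX targets, alone gave 7 of the 16, and so 7 of the 11 in RBFOX targets. A KIF21A exon of 39 bases was counted with 2 sets of flanking exons. A counted 36-base CASK exon was included at 99.97% and 99.92% in shControl and at 100% in shNeuroD1. Its skipped form was at 0.001 FPKM or less, so its log2 ratio followed the included form. A counted 396-base GAP43 exon was included at 1.45% in shControl replicate 1 and at 0 elsewhere, with overlapping groups. The lowest adjusted p was 0.254 in the target genes and over all exons.

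The exons that follow were named after their values had been seen, for the 5 target genes with the lowest p. A 69-base exon of KIF21A, a kinesin gene, was included at 75.0% and 71.6% in shControl and at 100% in both shNeuroD1 libraries. A 63-base exon of ANK3, which encodes ankyrin-G, was included at 100% in both controls and was not listed in shNeuroD1, with its included form at 4.63 and 1.67 FPKM in shControl. A 54-base exon of CLTA, the clathrin light chain A gene, was included at 8.51% and 6.95% in shNeuroD1 and at about 0 in shControl.

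A 99-base exon of ANK2, which encodes ankyrin-B, was included at 1.30% and 8.23% in shControl and at 78.05% and 70.6% in shNeuroD1. A 21-base microexon of MEF2D, a muscle and neuronal transcription factor gene, was included at 79.5% and 72.7% in shControl and at 100% in both shNeuroD1 libraries. The 5 exons had adjusted p-values from 0.254 to 0.26 by limma, so none passed.

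**Figure D4:**
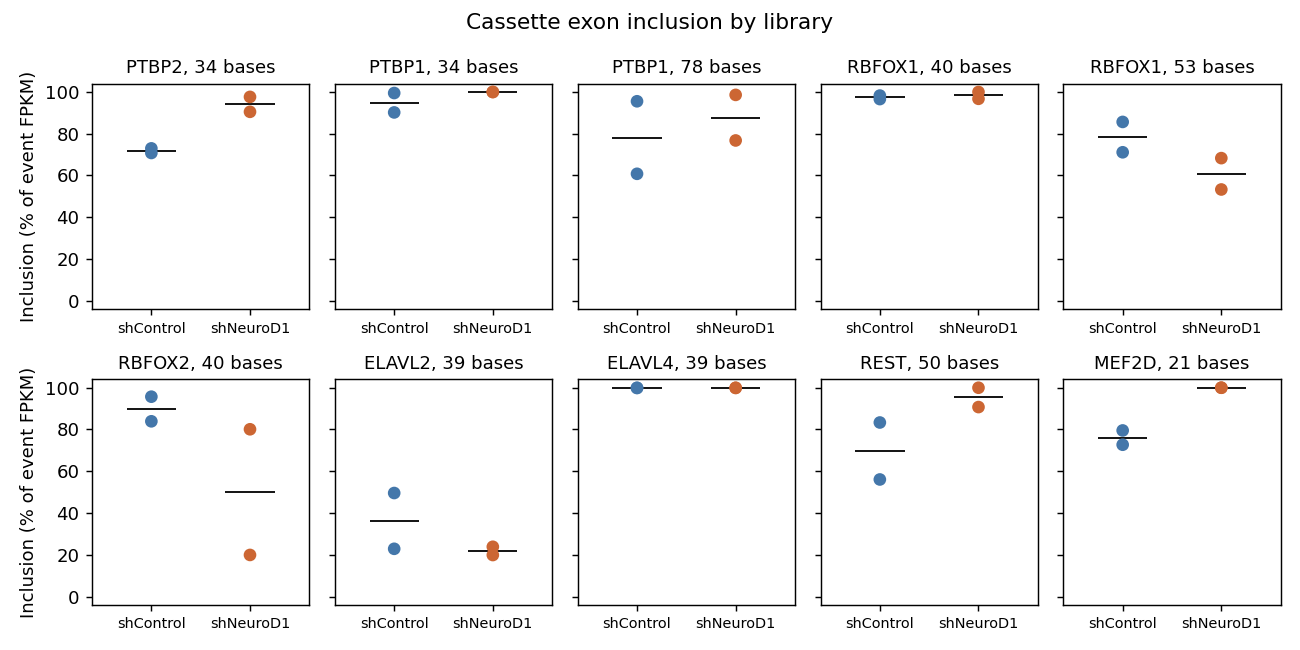
Inclusion of 10 cassette exons in each library (y axis, included share of the FPKM of both forms, in percent), named by gene and length, for shControl (blue) and shNeuroD1 (orange). Points are libraries and bars are group means. The PTBP2 exon stands at 73.0% and 70.8% in shControl and at 97.7% and 90.5% in shNeuroD1, while the 2 shNeuroD1 libraries differ widely for the RBFOX2 exon. None of these differences passed the adjusted p.

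Among 30 other RNA-binding splicing regulators with restricted expression, 26 were tested, 5 were higher (19.2%) and 16 lower (61.5%) at the adjusted p, with a median log2 fold change of -0.22. Over all genes tested the shares were 26.8% higher and 28.2% lower. This list also holds PTBP3, RBFOX3, ELAVL1 and SRRM3. KHSRP, a KH-type protein that promotes decay of AU-rich mRNAs, was at 306 and 308 CPM in shControl and at 92.2 and 93.3 CPM in shNeuroD1 and fell by 1.73 (SE 0.05, adjusted p = 1.7e-24 in edgeR). MSI1 (Musashi 1), a translational regulator of neural progenitors, fell by 1.27 (SE 0.06, adjusted p = 2.1e-18 in edgeR). CELF3, a brain-enriched splicing regulator, rose from 93.6 and 86.3 CPM to 264 and 274 CPM (log2 fold change 1.58, SE 0.05, adjusted p = 7.6e-23 in edgeR), and CELF5 rose by 1.13 (SE 0.10, adjusted p = 4.6e-11 in edgeR).

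Of 69 general splicing factors (snRNP, SR and hnRNP proteins), 50 were lower (72.5%, against 28.2% of all genes) and 3 higher (4.35%, against 26.8%) at the adjusted p, with a median of -0.33, and none passed both thresholds. SRSF7, SRSF3 and SNRPG fell by 0.76, 0.72 and 0.70 on the log2 scale. PTBP1, at -0.59, thus fell by more than the median of the general factors. Of 22 mRNA transport and translation proteins, 11 were lower (50%) and 5 higher (22.7%), with a median of -0.11. CYFIP2 at 0.76 and its paralog CYFIP1 at -0.67, both partners of the fragile X protein, passed the adjusted p in opposite directions.

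Total expression of the known targets was also counted. Beside 26.8% higher and 28.2% lower over all genes, 5 of 9 NOVA targets were higher (55.6%) and 1 lower (11.1%), and 6 of 14 RBFOX targets were higher (42.9%) and 3 lower (21.4%). Of 7 neuronal ELAVL targets 3 were higher (42.9%) and 2 lower (28.6%). The 16 SRRM4 targets, with 5 higher (31.2%) and 4 lower (25%), and the 9 PTBP targets, with 3 higher (33.3%) and 2 lower (22.2%), were near the shares of all genes. The medians ran from -0.03 to 0.29. KCNJ6, a potassium channel gene among the NOVA targets, fell by 1.57 (SE 0.27, adjusted p = 7.2e-06 in edgeR).

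Among RBFOX targets the NMDA receptor gene GRIN1, ANK2 and the calcium channel gene CACNA1C rose by 1.80, 1.50 and 1.36 on the log2 scale. Of the ELAVL targets GAP43, a growth cone gene, was at 19.6 and 19.3 CPM against 61.3 and 58.1 CPM and rose by 1.62, and TRIM46, an axon initial segment gene, rose by 1.22. CASK, a synaptic scaffold gene among the SRRM4 targets, rose by 1.15. These 6 genes had edgeR adjusted p-values from 3.5e-21 to 7.2e-15.

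**Figure D5:**
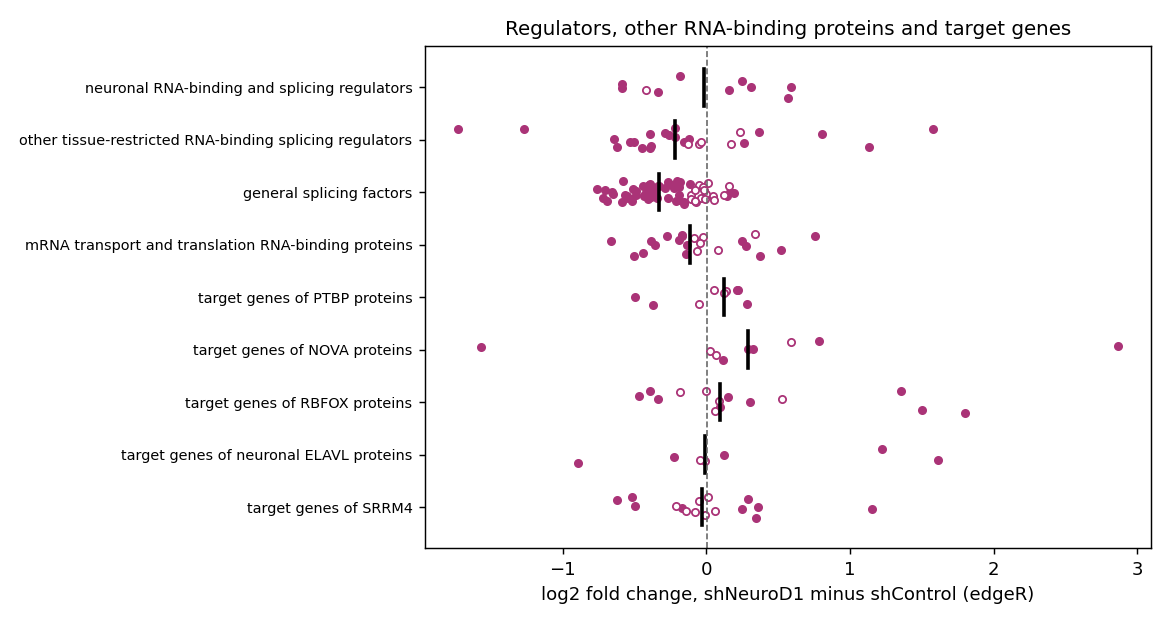
Log2 fold change (x axis, shNeuroD1 minus shControl, edgeR) of the 10 regulators and of 8 gene lists. Filled points passed an adjusted p of 0.05, open points did not, black bars are list medians and the dashed line is the median of all genes tested. The general splicing factors have their median at -0.33 and the regulators at -0.01.

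In limma fits of gene FPKM, which could be made for 8 of the regulators, none passed the adjusted p, although each kept its direction. Transcript events are estimates without read counts, so their depth is unknown.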

How the data were processed

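Per the labels and the study's methods, the authors trimmed paired-end reads with cutadapt 1.9.1, aligned them to hg38 with HISAT2 2.0.1, counted reads per gene with HTSeq 0.6.1 and tested genes with DESeq2. The annotation release and strand setting are not given in the sources used here. The deposited counts per gene are raw, and 60401 of 60612 identifiers matched a symbol. The deposited FPKM values belong to transcript starts and skipped or included exons, by a tool not given in the sources used here, and were listed where above 0, so unlisted values were set to 0. The authors' fold change and p-value columns were not used.

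Counts were tested with edgeR 4.0.16 (TMM, filterByExpr with a minimum count of 10, quasi-likelihood), adjusted over all genes, and DESeq2 1.42.0 was an alternative. For exons, the log2 ratio of included to skipped FPKM, each plus 0.1, was tested with limma 3.58.1 where both forms summed to at least 1 FPKM in every library. Both forms were paired by exon and the first 15 digits of their flanks, since longer flanks of skipped forms were rounded in the files. Of 626249 event rows, 24700 exact repeats were dropped. RPKM used merged GENCODE 29 exons. The scripts were tested on simulated data.

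The regulators and gene lists were chosen with earlier results of these data known. Named were the regulators, NEUROD1, REST, 4 relatives, and from each list up to 4 genes with the largest change past both thresholds, of which 1 gene is not reported here. SRSF7, SRSF3, SNRPG, CYFIP1, CYFIP2 and the target exons were named after their values were seen.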

Additional observations from a re-analysis of the deposited data

How the results depend on the processing

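The 10 regulators kept their direction under every count-based alternative: DESeq2, DESeq2 size factors, library size alone, other filters, the replicate block and leaving out each library, where the lone library of a group is assumed to vary like the others. Past the adjusted p there were 9 regulators in the main test, 7 to 8 without 1 library and 0 in both limma fits of FPKM. Past both thresholds there were 0, against 9 by the adjusted p alone. The 8 other lists had 26, 69, 22, 9, 9, 14, 7 and 16 genes tested. Of these lists, 12 genes passed both thresholds, 4 and 2 with FPKM plus 1 and plus 0.1, and 123 the adjusted p alone. Of all 17537 genes, 13.9% passed both thresholds and 55.0% the adjusted p alone. Of 10084 genes with FPKM, 202 lower and 191 higher passed both thresholds with plus 1, and 120 and 119 with plus 0.1. PTBP2 missed the adjusted p without a filter (0.14), with DESeq2 (0.14) and without each library (0.12 to 0.18), and ELAVL2 with library size alone (-0.0713) and without shNeuroD1 replicate 2 (range without 1 library -0.22 to -0.15). With FPKM plus 1 and plus 0.1, none passed: PTBP1 was at -1.08 and -1.12, PTBP2 at 0.21 and 0.22, NOVA2 at 0.63 and 0.75, RBFOX1 at 0.54 and 0.66, RBFOX2 at 0.18 and 0.18, ELAVL2 at -0.40 and -0.41 (its FPKM includes a start listed on the opposite strand, at 3.53 and 2.98 FPKM in shControl and 0 in shNeuroD1), ELAVL4 at 0.52 and 0.53, and SRRM4 at -0.43 and -0.47. The log2 difference of the PTBP2 to PTBP1 ratio moved from 0.74 to 1.35 with FPKM, and the causes were not tested. The RBFOX1 40-base exon turned from 0.60 to -0.10 without shNeuroD1 replicate 1 (-0.0995 to 1.3 without 1 library). Deviations of libraries with the same number were nearly uncorrelated (0.0158), so no pairing by number was seen. This does not settle whether such libraries were prepared together. With the replicate block 9 regulators passed, PTBP2 at 0.16. Changed exons stayed at 0 in each alternative. Depth limits NOVA1 most, with 52 to 73 counts.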
